A study of Mus musculus with 4 samples.

Results

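The genes described here are 35 genes of autophagy and LC3-associated phagocytosis, chosen by name, out of 34745 genes in the table of the whole series. All 35 were found, 34 by the symbol in the table and Rubcn by its gene ID, under which the table lists the older symbol 1700021K19Rik, and all 35 were among the 12418 genes with enough counts to be tested. The libraries were made from total RNA of mouse bone marrow-derived macrophages grown in DMEM with fetal bovine serum. The 2 libraries labelled WT came from G3bp1 f/f animals, in which the gene of the stress granule protein G3BP1 is flanked by loxP sites, and the 2 labelled KO from G3bp1mac-/- animals, which carry the same floxed alleles and Lyz2-Cre. Both groups therefore share the floxed alleles, and only the KO group carries Cre, whose Lyz2 promoter is active across the myeloid lineage and not in macrophages alone. The labels give no treatment for these cultures, and neither the age of the donor animals nor whether libraries came from separate animals or cultures is stated in the sources used here, so the p-values measure only the spread between these libraries, which may be technical.

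Autophagy encloses cytoplasm in a double membrane that fuses with lysosomes. The ULK kinase complex starts it, class III PI3K complexes make the lipid PI3P, ATG9, ATG2 and WIPI proteins supply and tether membrane, ubiquitin-like conjugation systems attach ATG8 proteins (LC3 and GABARAP) to lipid, and receptors such as p62 bind cargo to the ATG8 proteins. In LC3-associated phagocytosis, which macrophages use on microbes and dying cells, LC3 is attached to the single membrane of the phagosome. This needs the conjugation system, a Rubicon-containing PI3K complex and the NADPH oxidase, but not the ULK complex.

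Library totals ran from 16724241 to 19747909 counts. G3bp1 itself (ENSMUSG00000018583) stood at 104 and 180 CPM (counts scaled to the effective depth of each library) in WT libraries 1 and 2 and at 70.1 and 117 CPM in KO libraries 1 and 2. Each KO library was below the WT library of the same number, but KO 2 was above WT 1, so the groups overlapped (log2 fold change -0.61, SE 0.40, edgeR quasi-likelihood adjusted p = 0.904). The whole-gene count does not separate exons inside and outside the floxed segment. The study reports efficient ablation of G3BP1 in macrophages of such animals, from message and protein measured apart from these libraries. The first principal component (57.4% of the variance) separated libraries numbered 2 from those numbered 1, and the second (34.3%) separated the genotypes. All 12 macrophage markers were detected, with a summed level of 25528 to 27659 CPM in WT and 21859 to 25380 CPM in KO, most of it Lyz2. Of the 12, Cd68, C1qa, C1qb and C1qc were lower and Itgam higher in both KO libraries than in both WT libraries. All 10 stromal markers were detected too, at 80.5 to 93.8 CPM in WT and 333 to 357 CPM in KO, with 9 of 10 higher in both KO libraries than in both WT libraries. Summed levels were lower in both KO libraries for markers of B cells (43.2 to 47.0 CPM in WT, 23.4 to 27.0 CPM in KO), mast cells and basophils (32.9 and 34.0 CPM in WT 1 and 2, with 17.6 CPM in KO 1 and KO 2 also below WT), neutrophils (33.3 to 35.4 and 22.2 to 24.7 CPM) and erythroid cells (7.34 to 9.86 and 1.66 to 2.39 CPM, with 4 markers lower in both KO libraries than in both WT libraries). All 6 B cell markers were lower in both KO libraries than in both WT libraries. Of the 9 neutrophil markers, only S100a8 and S100a9 were lower in this way, and Mmp8 was higher. The lower neutrophil sum was therefore not shared by the list as a whole. Of the 6 mast cell and basophil markers, 3 were lower in this way and Gata2 was higher, with Cpa3 making up most of the sum. Elane, Mpo and Mcpt8 were at 0 throughout. Dendritic cell markers (4.50 to 7.78 and 4.99 to 7.57 CPM) and T and NK cell markers (1.07 to 1.85 and 1.12 to 1.13 CPM) overlapped. The part of these other cells in the values below was not tested, and in such bulk RNA fewer cells of a type and less RNA per cell cannot be told apart.

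The transcription factor TFEB, a known activator of autophagy and lysosome genes, binds an E-box, and the members that hold its letters before a RefSeq start are shown here for that reason. Promoters were matched for 29 of the 35 members in RefSeq (GRCm38.p6). The letters CACGTG, searched on both strands in the 250 bases before each start, were found for 4 of the 29 members (13.8%), against 6.86% of 27025 genes. They were Atg3, which held the letters at 2 places, Atg5, Atg7 and Rubcn. In the lines that follow, the motif is in capitals, each sequence is read 5′ to 3′ on the strand of its gene, and the name is followed by the position of the first motif base relative to the start.
Atg3 at -94, chr16:45158717-45158758, plus strand: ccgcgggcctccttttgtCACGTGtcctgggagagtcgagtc
Atg3 at -71, chr16:45158740-45158781, plus strand: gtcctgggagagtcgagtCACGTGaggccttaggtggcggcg
Atg5 at -14, chr10:44268307-44268338, plus strand: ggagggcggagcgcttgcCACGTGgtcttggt
Atg7 at -132, chr6:114670946-114670987, plus strand: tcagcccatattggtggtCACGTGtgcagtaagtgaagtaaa
Rubcn at -88, chr16:32868431-32868472, minus strand: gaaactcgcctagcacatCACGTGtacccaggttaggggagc

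The starts used there for Atg7 and Rubcn lie inside the genes as the table gives them (chr6:114643097-114860614 and chr16:32821703-32877766), so those 2 motifs are not at the outer end of the gene. A second RefSeq start at the outer end of Rubcn held no such letters. The core TGACNNNGC of the antioxidant response element, bound by NRF2, was found on either strand for 3 of the 29 members (Atg13, Tax1bp1 and Ulk2, 10.3%), against 11.5% of the 27025 genes. Sqstm1, the member that varied most between libraries, held neither motif in its 250 bases, which are printed whole because its levels are followed below.
Sqstm1, chr11:50210821-50211070, minus strand: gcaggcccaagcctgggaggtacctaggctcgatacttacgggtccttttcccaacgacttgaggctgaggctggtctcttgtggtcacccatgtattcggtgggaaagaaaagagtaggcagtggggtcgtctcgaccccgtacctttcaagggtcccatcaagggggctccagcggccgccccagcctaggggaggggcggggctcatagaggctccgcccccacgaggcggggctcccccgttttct

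A motif match is a description of the letters and not of a bound site, and the search says nothing of either factor outside these windows. The messages of the 2 genes with the highest level, Gabarap and Sqstm1, were each over 100 FPKM (the deposited unit, fragments scaled to gene model length and library depth) on average. Of the other members, 24 lay between 2 and 100 FPKM and 9 below 2 FPKM, with a median over the 35 of 6.47 FPKM. Every member had at least 83 counts in every library. The plot of levels by library shows that the order of the genes was set far more by the gene than by the library.

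**Figure D1:**
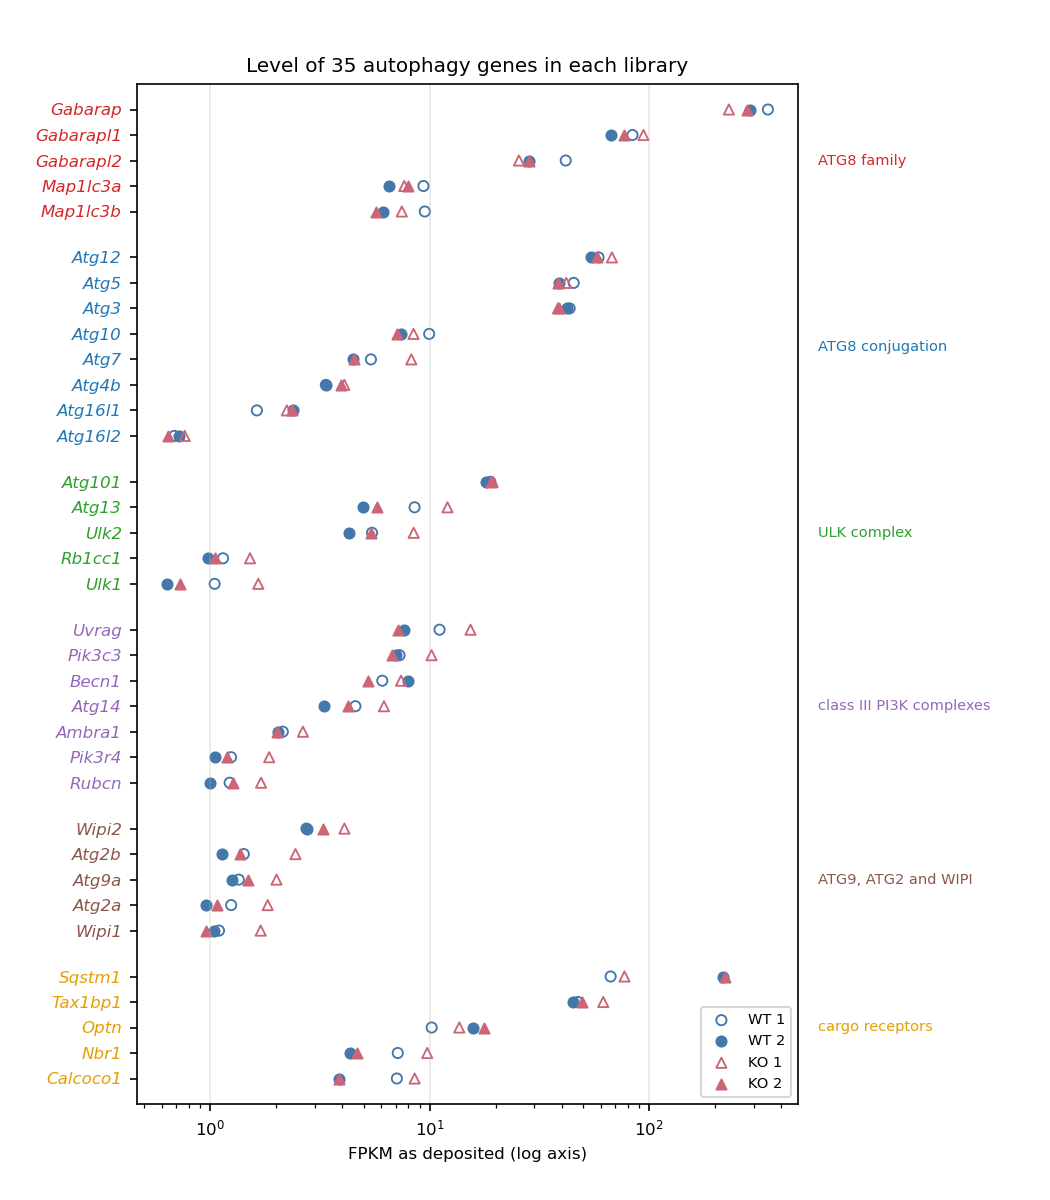
FPKM (log axis) of the 35 genes in each of the 4 libraries, grouped by role, circles for WT, triangles for KO, open for libraries numbered 1 and filled for those numbered 2. Gabarap stood highest, and Sqstm1 is the gene whose filled symbols (216 and 221 FPKM) lie apart from its open ones (66.7 and 77.2 FPKM).

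Between KO and WT, 0 of the 35 members passed the test, at an edgeR quasi-likelihood adjusted p under 0.05 with a fold change over 2. The same test called 0 of all 12418 genes (0%), so the count carries no information on the members. Nor did a member reach an unadjusted p under 0.05, which 6.63% of all genes did. The edgeR exact test called 1.84% of all genes and DESeq2 1.46%, and each called 0 members. The median log2 fold change of the members was 0.09, beside 0.04 over all genes. Single members ran from -0.52 to 0.41, with 22 of 35 (62.9%) above 0, where 54.6% of all genes were. Standard errors ran from 0.21 to 0.75 on the log2 scale, so a 2-fold difference lay inside the 95% interval of several members, among them Ulk1, Atg13 and Sqstm1.

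Both KO libraries stood above both WT libraries for 4 members, Atg4b, Atg9a, Wipi2 and Tax1bp1, a share of 11.4%, where 20.0% of all genes did so. Both KO libraries stood below both WT libraries for 7 members, Gabarap, Gabarapl2, Atg3, Atg5, Atg10, Atg16l2 and Atg101, a share of 20.0%, where 16.9% of all genes did so. This share is near that of all genes.

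**Figure D2:**
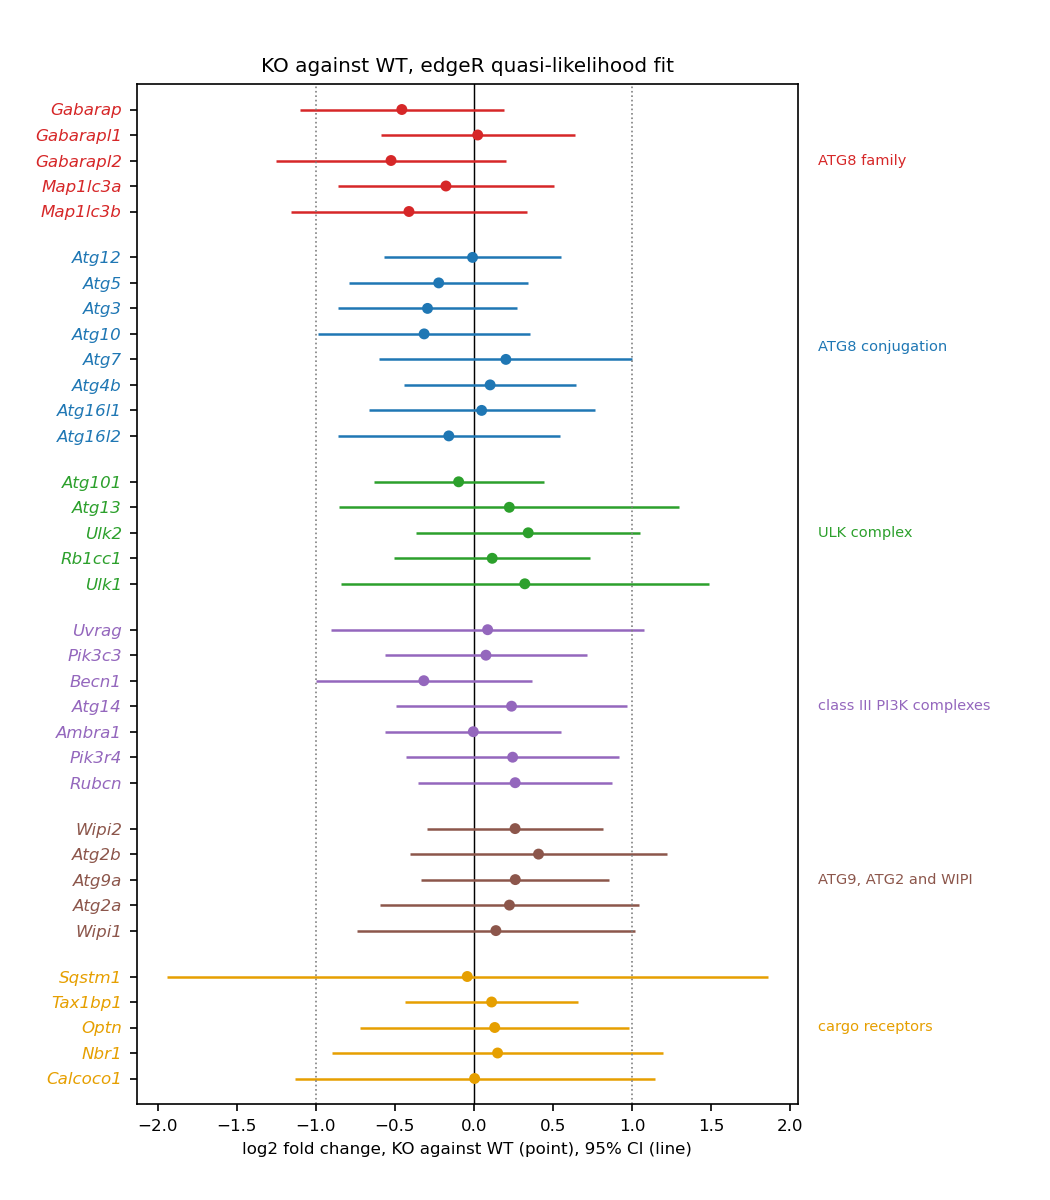
Log2 fold change of KO against WT (points) with 95% confidence intervals (lines) from the edgeR quasi-likelihood fit for the 35 members, coloured by role, with dotted lines at 2-fold. Every interval crosses 0, and the interval of Sqstm1 (-1.94 to 1.86) is the widest.

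The ATG8 family holds the proteins that are attached to autophagosome and phagosome membranes. Their median log2 fold change was -0.41, and 4 of 5 were below 0, but without WT 1 the median was -0.07 and 2 of 5 were above 0. Gabarap (ENSMUSG00000018567, chr11:69991143-69994951, plus strand), whose protein acts late in autophagosome maturation, stood at 1213 and 1014 CPM in WT libraries 1 and 2 and at 689 and 934 CPM in KO libraries 1 and 2. Both KO libraries were lower, and the larger gap was in the libraries numbered 1. The log2 fold change was -0.46 (SE 0.25, edgeR adjusted p = 0.871).

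Gabarapl2, a close relative of Gabarap, had the smallest unadjusted p of the 35 (edgeR quasi-likelihood, 0.125). It stood at 129 and 89.1 CPM in WT and at 67.7 and 84.0 CPM in KO, so the groups did not overlap but WT 2 and KO 2 were close. Its log2 fold change was -0.52 (SE 0.29, edgeR adjusted p = 0.866). Gabarapl1, the third GABARAP gene, stood at 281 and 227 CPM in WT and at 270 and 246 CPM in KO, with the KO values inside the WT range and no clear direction (log2 fold change 0.02, SE 0.24, edgeR adjusted p = 0.994).

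Map1lc3b, which encodes the LC3B protein used as the standard marker of autophagosomes, stood at 105 and 68.9 CPM in WT and at 70.8 and 60.1 CPM in KO. The groups overlapped, and in each genotype library 2 was the lower. The log2 fold change was -0.41 (SE 0.29, edgeR adjusted p = 0.927). Map1lc3a, the LC3A gene, stood at 24.8 and 17.6 CPM in WT and at 17.4 and 20.1 CPM in KO, where WT 2 fell between the KO values (log2 fold change -0.18, SE 0.27, edgeR adjusted p = 0.968).

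Per length, Gabarap made up most of the family in every library. Its share of the summed FPKM was 70.6% and 72.7% in WT and 63.1% and 70.2% in KO. Gabarapl1 made up 17.1% and 16.9% in WT and 25.8% and 19.3% in KO, and Gabarapl2 between 6.98% and 8.47% in any library. The LC3 genes Map1lc3a and Map1lc3b were each between 1.42% and 2.09%. The share of Gabarapl1 was higher and that of Gabarap lower in both KO libraries (exact permutation test, two-sided, p = 0.333 for each, the smallest that 2 against 2 libraries allow), and most of either difference came from KO 1. In GENCODE M21 the exons of Gabarapl1 share 570 bases with 1700101I11Rik on the opposite strand, and whether the counting used strand is not given. Without division by length the shares of Gabarap overlapped, at 69.2% in WT 1 and 69.5% in KO 2 (exact permutation p = 0.667). On that scale Map1lc3b, whose gene model is the longest of the family (10574 nt), made up 4.47% to 6.35% and Map1lc3a 1.24% to 1.56%. The gene model lengths behind FPKM differ from the merged exons of GENCODE M21 (1.27 times as long at the median member), and with M21 lengths, an alternative chosen after seeing the data, Gabarap again made up 66.6% to 75.9% of the family.

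**Figure D3:**
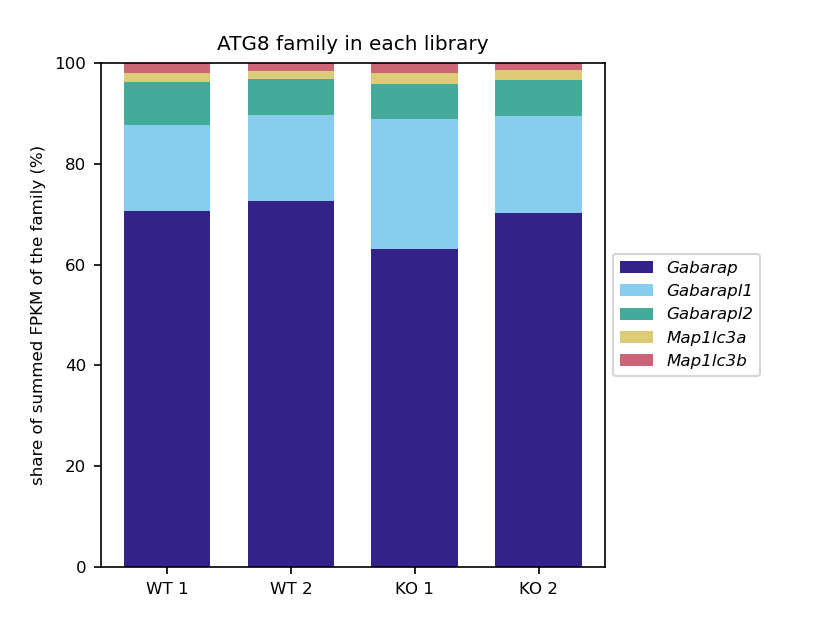
Share of each ATG8 family gene in the summed FPKM of the family (bars from 0 to 100%) in each of the 4 libraries, with no error bar since each bar is 1 library. Gabarap fills 63.1% to 72.7% of every bar, and the Gabarapl1 segment is largest in KO 1 at 25.8%.

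The conjugation system attaches ATG8 proteins to lipid and is needed for autophagy and LC3-associated phagocytosis alike. Its 8 genes had a median log2 fold change of -0.08, from -0.32 to 0.20. Atg5, part of the complex that places LC3 on membranes, stood at 112 and 97.1 CPM in WT and at 88.4 and 90.4 CPM in KO. Both KO libraries were lower, but the 95% interval held 0 (log2 fold change -0.22, SE 0.22, edgeR adjusted p = 0.957). Atg3, the E2-like enzyme for LC3, stood at 156 and 153 CPM in WT and at 119 and 134 CPM in KO. Again both KO libraries were lower, and the libraries of a genotype were close to each other (log2 fold change -0.29, SE 0.22, edgeR adjusted p = 0.933).

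Atg10, the E2-like enzyme for ATG12, stood at 16.8 and 12.7 CPM in WT and at 12.2 and 11.5 CPM in KO. WT 1 was the only library far from the rest (log2 fold change -0.32, SE 0.26, edgeR adjusted p = 0.943). Atg7, the E1-like enzyme that both conjugation systems share, stood at 61.6 and 51.5 CPM in WT and at 80.6 and 49.5 CPM in KO. KO 1 was highest and KO 2 lowest, so the KO libraries enclosed the WT ones (log2 fold change 0.20, SE 0.32, edgeR adjusted p = 0.971). Atg16l1, which brings the ATG12–ATG5 conjugate to the membrane, stood at 27.9 and 41.2 CPM in WT and at 32.7 and 38.7 CPM in KO, the KO values lying inside the WT range (log2 fold change 0.05, SE 0.28, edgeR adjusted p = 0.990). The 4 members with CACGTG in the promoter did not move one way, since Atg3 and Atg5 had fold changes below 0 and Atg7 and Rubcn above 0, none past the test.

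The ULK complex starts canonical autophagy and is not needed for LC3-associated phagocytosis. Its median log2 fold change was 0.22, with 4 of 5 genes above 0, but the direction turned without KO 1 (median -0.08) and without WT 2 (-0.02), each with 1 of 5 above 0. Ulk1, the kinase, stood at 10.7 and 6.53 CPM in WT and at 14.4 and 7.06 CPM in KO. Both libraries numbered 2 were below both numbered 1, and within each number KO was above WT (log2 fold change 0.32, SE 0.46, edgeR adjusted p = 0.965). Ulk2, its relative, stood at 38.3 and 30.4 CPM in WT and at 50.8 and 36.4 CPM in KO, with KO 2 just below WT 1 (log2 fold change 0.34, SE 0.28, edgeR adjusted p = 0.941).

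Of the 7 class III PI3K genes 5 had log2 fold changes above 0, and their median was 0.09, but without KO 1 it was -0.12 with 2 of 7 above 0, and without WT 2 it was -0.00198 with 3 of 7. Becn1, which encodes the scaffold Beclin 1, was one of the 2 below 0. It stood at 80.8 and 107 CPM in WT and at 84.2 and 66.4 CPM in KO, so that the difference lay in the libraries numbered 2 (log2 ratio of KO to WT -0.69, against 0.06 in those numbered 1). Its log2 fold change was -0.32 (SE 0.27, edgeR adjusted p = 0.948). In GENCODE M21 the exons of Becn1 share 3104 bases with Cntd1 on the opposite strand, and whether the counting used strand is not given in the sources used here, so reads of both genes cannot be told apart.

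Rubcn encodes Rubicon, which is needed for LC3-associated phagocytosis and holds back canonical autophagy. It stood at 19.5 and 16.1 CPM in WT and at 23.2 and 19.4 CPM in KO. KO was above WT by a log2 ratio of 0.25 within number 1 and 0.27 within number 2, but KO 2 was just below WT 1 (log2 fold change 0.26, SE 0.24, edgeR adjusted p = 0.956). Atg14, which directs the complex to autophagosome formation, stood at 16.6 and 12.1 CPM in WT and at 19.2 and 14.7 CPM in KO, with overlap (log2 fold change 0.24, SE 0.29, edgeR adjusted p = 0.964). Pik3r4, the regulatory subunit of the complexes, stood at 19.4 and 16.6 CPM in WT and at 24.7 and 17.8 CPM in KO, where KO 1 alone was above the WT range (log2 fold change 0.24, SE 0.27, edgeR adjusted p = 0.962).

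The 5 genes of ATG9, ATG2 and the WIPI proteins, which bring membrane and lipid to the growing phagophore, all had log2 fold changes above 0, with a median of 0.26, but without KO 1 the median was 0.03 and 3 of 5 were above 0. Wipi2, which binds PI3P and recruits ATG16L1, stood at 36.7 and 37.5 CPM in WT and at 46.8 and 42.0 CPM in KO, both KO libraries above both WT ones (log2 fold change 0.26, SE 0.22, edgeR adjusted p = 0.943). Atg9a, the transmembrane lipid scramblase, had 258 and 239 counts in WT libraries and 377 and 331 in KO libraries, again without overlap after scaling (log2 fold change 0.26, SE 0.23, edgeR adjusted p = 0.952). Its M21 exons share 1832 bases with Gm29253 on the same strand, so even stranded counting could not tell these reads apart. Atg2b, a lipid transfer protein, had the highest log2 fold change of the 35, 0.41 (SE 0.32, edgeR adjusted p = 0.938). Its levels were 15.2 and 12.2 CPM in WT and 22.3 and 14.0 CPM in KO, and KO 1 alone was above the WT range.

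The direction of these small differences went with gene length. Across the 35 members, the log2 fold change had a Spearman correlation with the gene model length behind FPKM of 0.49, beside 0.37 over all genes tested. This is across genes, which share libraries and are not independent. Of the 18 members of up to 7252 nt, 9 had a fold change above 0, and of the 17 others, 13 did. Over all genes tested, 3783 of 8262 up to that length and 2993 of 4156 longer ones did. The correlation over the members was 0.52 between the libraries numbered 1 and 0.21 between those numbered 2, beside 0.43 and 0.13 over all genes. After a trend of counts on length was taken out of each library the correlation over the members was -0.12, and their median log2 fold change was then 0.01. The ATG8 genes are mostly short, with a median length of 3194 nt, and those of the ATG9, ATG2 and WIPI group long, at 10173 nt. Map1lc3b was long (10574 nt) and yet had a fold change below 0. With the length trend taken out, the median log2 fold change of the ATG8 family was -0.43, against -0.41 without the correction, while that of the ATG9, ATG2 and WIPI genes was 0.09, against 0.26, and that of the cargo receptors turned from 0.11 to -0.05. Leaving out 1 library at a time, the median ran from -0.08 to 0.56 for the ULK genes and from -0.12 to 0.38 for the class III PI3K genes, lowest without KO 1 in both. It ran from -0.61 (without WT 2) to -0.07 (without WT 1) for the ATG8 family, from -0.20 to -0.10 for the conjugation genes, from 0.03 to 0.44 for the ATG9, ATG2 and WIPI genes and from 0.03 to 0.19 for the cargo receptors.

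**Figure D4:**
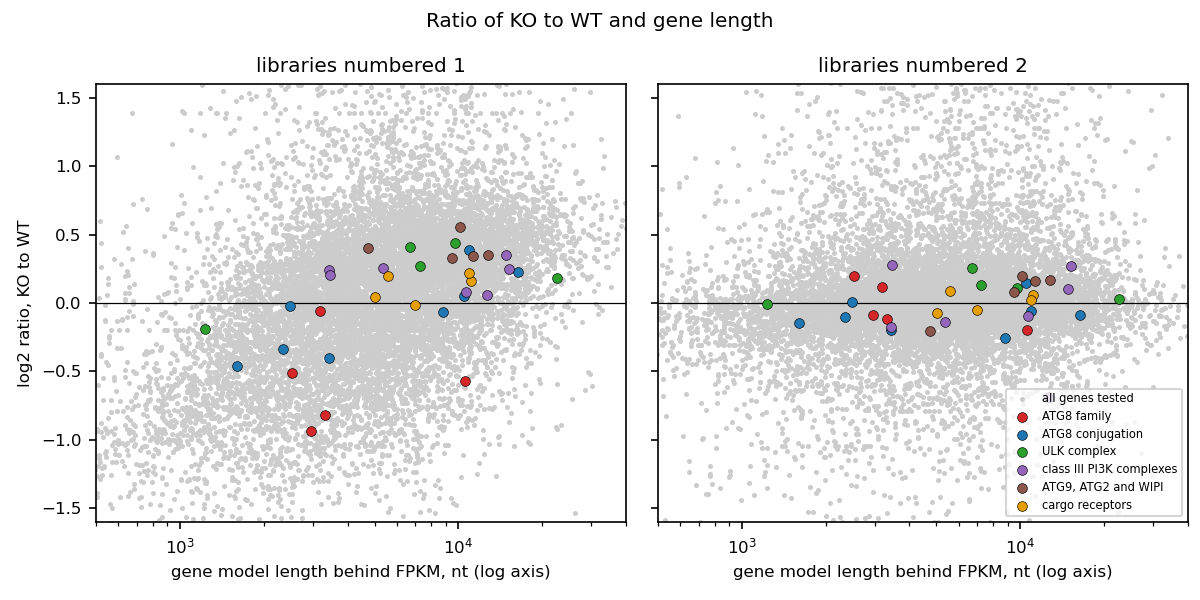
Log2 ratio of KO to WT against gene model length in nt (log axis) in the libraries numbered 1 (left) and 2 (right), grey for all 12418 genes tested and coloured for the 35 members by role, genes beyond the axes not drawn. The members rise with length on the left (Spearman correlation 0.52) and less so on the right (0.21), as do all genes (0.43 and 0.13).

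The cargo receptors had a median log2 fold change of 0.11, from -0.04 to 0.15, and several differed by library number. Sqstm1 (ENSMUSG00000015837, chr11:50199366-50210827, minus strand), which encodes the receptor p62, stood at 490 and 1612 CPM in WT libraries 1 and 2 and at 486 and 1556 CPM in KO libraries 1 and 2. Libraries numbered 2 were higher by 1.72 on the log2 scale in WT and by 1.68 in KO. Between genotypes the libraries of a number were nearly equal (log2 ratio of KO to WT -0.01 within number 1, -0.05 within number 2). The fit holds genotype alone (log2 fold change -0.04, SE 0.75, edgeR adjusted p = 0.996). Its 95% interval of -1.94 to 1.86 therefore includes the spread between numbers, and so admits a change of over 3-fold either way. In M21 the exons of Sqstm1 share 580 bases with Mrnip on the opposite strand.

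Both libraries numbered 2 were above both numbered 1 for 3 members, Sqstm1, Optn (another receptor of ubiquitinated cargo) and Atg16l1, where 25.2% of all genes were. They were below both numbered 1 for 19 of 35 members, where 23.2% of all genes were. The 19 included 6 of the 7 class III PI3K genes, all but Becn1, 4 of the 5 ULK complex genes, all but Atg101, and 3 of the 5 genes of the ATG9, ATG2 and WIPI group. In both the ATG8 family and the conjugation system 2 genes did so. By more than 2-fold in each genotype, 1 member, Sqstm1, was higher in number 2, against 4.36% of all genes, and 0 members were lower, against 2.42%. For 22 of the 35 members (62.9%) the mean difference between numbers was larger than that between genotypes, as for 54.6% of all genes.

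Among the members lower in libraries numbered 2, chosen after their values were seen, Calcoco1, a relative of the autophagy receptor NDP52, stood at 37.2 and 20.5 CPM in WT and at 38.4 and 19.5 CPM in KO. Nbr1, a receptor that works with p62, stood at 82.1 and 50.3 CPM in WT and at 95.7 and 51.2 CPM in KO. Atg13, the adaptor of the ULK complex, stood at 64.9 and 38.1 CPM in WT and at 78.4 and 41.8 CPM in KO. For each of these the libraries of one number lay close together and apart from those of the other, and they ran opposite to Sqstm1 although p62 and NBR1 act in the same step. The labels do not say what the numbers stand for, so a shared day and another kind of batch cannot be told apart.

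**Figure D5:**
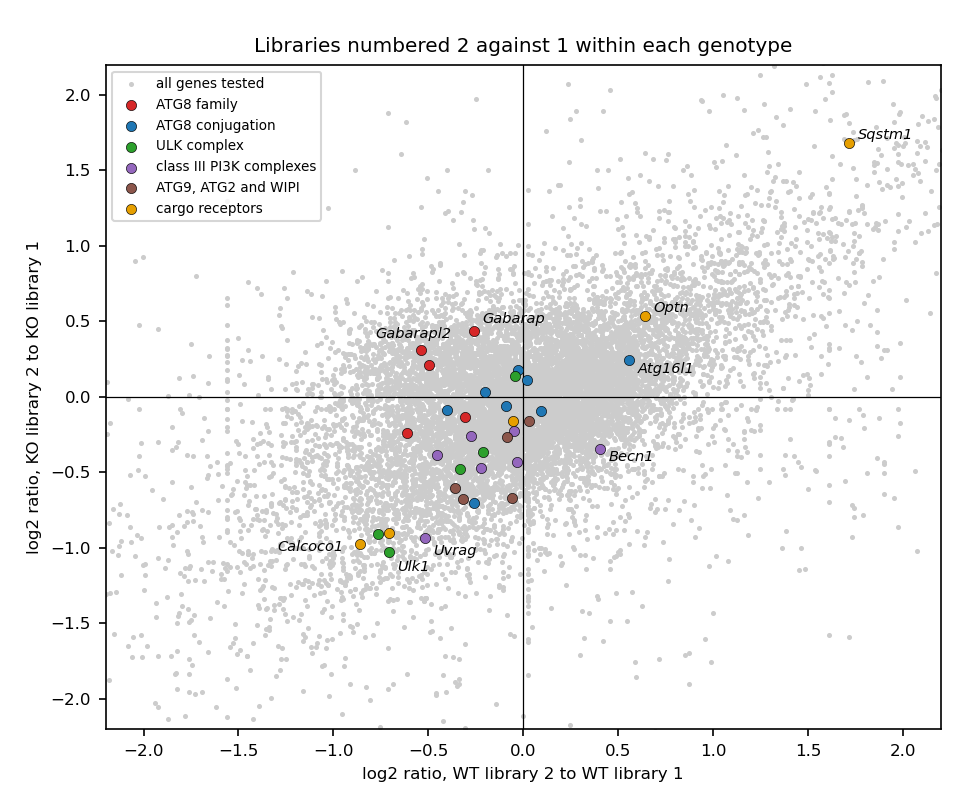
Log2 ratio of library 2 to library 1 in WT (x axis) and in KO (y axis), grey for all 12418 genes tested and coloured for the 35 members by role, genes beyond the axes not drawn. Sqstm1 lies at 1.72 and 1.68, while 19 members lie in the lower left with all number 2 libraries below all number 1 libraries.

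Of 58 other autophagy genes listed with the members, 57 were tested, Calcoco2 having 0 counts in every library. Between KO and WT 0 of the 57 passed the edgeR quasi-likelihood test with its adjusted p, and 2 (3.51%) had an unadjusted p under 0.05, both lower in KO, a smaller share than the 6.63% of all genes. Vamp8, a SNARE that fuses autophagosomes with lysosomes, stood at 411 and 288 CPM in WT and at 105 and 140 CPM in KO. The KO libraries were well below the WT ones, and the log2 fold change was -1.52 (SE 0.31, edgeR quasi-likelihood adjusted p = 0.289). DESeq2 called it (adjusted p = 0.00197) and the edgeR exact test did not (adjusted p = 0.0664). Over all alternatives run, the adjusted p ran from 4.31e-10, with the replicate number and gene length in the edgeR model, to 0.9997 without KO 1, and the fold change was below 0 in each. Bnip3, a mitophagy receptor, stood at 50.6 and 34.7 CPM in WT and at 24.8 and 22.9 CPM in KO, without overlap (log2 fold change -0.84, SE 0.27, edgeR quasi-likelihood adjusted p = 0.600).

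The NADPH oxidase genes, 7 listed and 7 tested, gave 0 calls and 6 log2 fold changes below 0 (median -0.19), where 5642 of all 12418 genes were below 0. Cybb, the catalytic subunit of the oxidase needed for LC3-associated phagocytosis, followed the library numbers as Sqstm1 did. Its counts were 9727 and 40380 in WT libraries 1 and 2 and 12707 and 46945 in KO libraries 1 and 2. After scaling, library 2 was higher by 2.08 on the log2 scale in WT and by 1.81 in KO (log2 fold change between genotypes -0.03, SE 0.84, edgeR adjusted p = 0.996). The 14 fusion genes had a median log2 fold change of 0.19, the 10 further phagophore genes -0.16, the 13 further receptors tested -0.02, and the 13 regulators, which include Tfeb and Mtor, 0.17 with 12 above 0. Of all genes tested 54.6% were above 0. Within number 1 the median log2 ratio of KO to WT of the regulators was 0.40, within number 2 it was -0.03, and 4 of the 13 had the same sign in both. Apart from Vamp8 and Bnip3 none of these reached an unadjusted p under 0.05.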

How the data were processed

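Total RNA of 2 WT and 2 KO macrophage samples was sequenced on an Illumina NovaSeq. Per the labels and the study's methods, the authors filtered reads with Seqtk, aligned them with HISAT2 (2.0.4) and assembled genes with StringTie (1.3.3b). The deposited table holds raw counts and FPKM per gene. The submitters' notes name mm39, but 27682 of 34267 gene IDs shared with GENCODE M21 have the position they have there, so coordinates are given as GRCm38. Genes were kept by filterByExpr (minimum count 10), scaled by TMM and tested with edgeR (4.0.16, quasi-likelihood, genotype alone, R 4.3.3), with Benjamini-Hochberg adjustment over all genes tested. CPM are TMM-scaled. Log2 ratios between single libraries add 0.5 counts. Alternatives used DESeq2 (1.42.0), limma (3.58.1), another scaling or filter, gene length, the replicate number, or 3 libraries. The model code was tested on simulated data. Members and lists were chosen with earlier results of these data known. Named with tests are 13 fixed genes, the 8 further members with the smallest unadjusted p, and other autophagy genes under 0.05. Chi-square per degree of freedom between libraries was 22.7 or more, so none was a duplicate. Library depth was 16724241 to 19747909 counts, and 3 counts equal 0.152 to 0.188 CPM. One marker gene is not reported here.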

Additional observations from a re-analysis of the deposited data

How the results depend on the processing

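No member was called between KO and WT under any of the alternatives run. The replicate numbers are not said to mark a batch, and 2 pairs do not establish pairing. Same-numbered libraries deviated together (correlation 0.710). With the replicate number as a block, 664 genes were called (494 higher, 170 lower) against 0, and with the block and a length correction 606. Members at an unadjusted p under 0.05 then numbered 2 with the block and 4 with the block and length correction, against 0, while 18.3% and 19.6% of all genes did so under the same fits, a larger share than 2 or 4 of 35, and Map1lc3b had an edgeR adjusted p of 0.0396 at a log2 fold change of -0.54, under the minimum fold. Other autophagy genes called numbered 1, Vamp8, with the block, with block and length, and with DESeq2. The block changed the sign of Cybb (0.0488). The median of the members was -0.000366 with block and length, and that of the other genes -0.00875 with DESeq2 size factors, -0.00876 with the DESeq2 Wald test, -0.0657 with the length correction and -0.0464 with block and length. Gabarapl1 was -0.0177 with DESeq2 size factors or Wald test, Atg16l1 -0.14 with either length correction, and with limma on FPKM Sqstm1 was 0.12 and Cybb 0.20.

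The median of the conjugation genes was 0.07 with limma on FPKM. Leaving out 1 library at a time, where the lone library of a group is assumed to vary like the other group, the median of the members ran from -0.11 (without KO 1) to 0.19 (without KO 2), and members at an unadjusted p under 0.05 from 0 to 1 (without WT 2). Fold changes ran from -1.11 to 1.02 for Sqstm1, -1.20 to 1.32 for Cybb, -0.28 to 0.75 for Ulk1, -0.19 to 0.51 for Atg7, -0.44 to 0.10 for Map1lc3a, -0.20 to 0.32 for Atg16l1, -0.15 to 0.19 for Gabarapl1, -0.0106 to 0.46 for Pik3r4 and -0.00198 to 0.49 for Atg14. The genotype difference in the Map1lc3b share ran from -0.320 (without KO 1) to 0.300 (without KO 2) percentage points, against -0.010 with all libraries. The causes were not tested.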
